A study of Homo sapiens with 4 samples.

Results

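BRCA1, its partner BARD1 and 8 further subunits of the BRCA1 complexes were examined in RNA-Seq counts of UGT2B17-expressing and UGT2B17-knockout prostate cancer cells. The 10 genes were listed by their symbols and found in the count table by Ensembl identifier, out of 60880 genes. The set was picked on measured values of these libraries, because BARD1 was lower while BRCA1 was higher in the knockout cells, so the changes of the 10 genes are given as a description and without a test. All 10 had enough reads to enter the 15626 genes fitted.

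The study compared LNCaP95, a subline of the human prostate cancer line LNCaP that grows without androgen, with LN95(KO), in which UGT2B17 was knocked out with CRISPR. UGT2B17 is an enzyme that attaches glucuronic acid to androgens. LNCaP95 gave replicates 1 and 2 (genotype WT) and LN95(KO) gave replicates 3 and 4 (genotype UGT2B17 KO). Both lines grew in RPMI1640 medium with charcoal-stripped serum, which is poor in steroids, and were not treated before RNA was taken. The number of knockout clones is not stated, and the labels name LN95 as the line of all 4 libraries while the series text gives LNCaP as the origin of the knockout, so a difference between the groups cannot be told apart from a difference between clones. Nothing in the labels says that the libraries of a group came from separate cultures, and the spread between them may be technical.

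BRCA1 and BARD1 form a heterodimer through their RING domains. The heterodimer is a ubiquitin ligase that acts in repair of DNA breaks by homologous recombination, and each protein is unstable without the other. It enters separate complexes: the A complex with ABRAXAS1, UIMC1, BABAM1, BABAM2 and BRCC3 binds ubiquitin chains at breaks, the B complex holds the helicase BRIP1, the C complex holds the resection factor RBBP8 (CtIP), and PALB2 links BRCA1 to BRCA2. BRCA1 and BRIP1 are transcribed mostly in S and G2 phase. In prostate cancer, loss of homologous recombination genes is the basis for treatment with PARP inhibitors.

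Gene reads numbered 17330338 to 18813193 per library, and the replicates of a group differed beyond sampling noise (chi-square over its degrees of freedom 2.35 for LNCaP95, 3.48 for the knockout). UGT2B17 had 2788 and 2748 reads in LNCaP95 against 21 and 20 in the knockout, and its log2 fold change was -7.04 ± 0.10 (SE; adjusted p 1.18e-18, quasi-likelihood test of edgeR, lower in both knockout libraries). All 9 luminal prostate markers had reads in every library, with summed levels of 3030 to 3036 CPM (counts scaled to library size) in LNCaP95 and 3657 to 3826 CPM in LN95(KO). The 3 basal markers together had 0.163 to 0.164 CPM in LNCaP95 against 1.02 to 1.26 CPM in the knockout. Most of the knockout value was KRT14 (1 and 2 counts in LNCaP95 against 17 and 20). KRT5 had at most 3 counts in a library, and TP63 had at most 2 counts in LNCaP95 and 0 in the knockout. The stromal marker DCN, the neuroendocrine marker CHGA and the leukocyte markers CD3E and CD68 were at 0 in all 4 libraries. The summed levels of the 4 neuroendocrine markers (49.7 to 50.9 against 14.2 to 14.97 CPM) and the 4 stromal markers (44.5 to 45.0 against 159 to 170 CPM) differed between the groups. So did those of the 4 immune and endothelial markers found (0.437 to 0.488 against 2.77 to 3.18 CPM). Each of these sums differed mainly through 1 gene: ENO2 (46.5 against 12.2 CPM), VIM (16.2 against 131 CPM) and VWF (0.435 against 2.97 CPM). SYP (2.42 against 2.34 CPM) and COL1A1 (28.4 against 33.0 CPM) differed little, NCAM1 was lower (1.39 against 0.027 CPM), and PTPRC had at most 1 count in a library. Of the genes tested, 2811 were called, which means an adjusted p under 0.05 and a change of more than 2-fold. In a bulk culture, fewer cells that express a gene and less RNA per cell cannot be told apart.

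The promoters of the 3 genes of the set that differed by more than 2-fold are shown first, so that their letters can be read beside their changes. Each is the 250 bases before the first base of the canonical transcript, read 5′ to 3′ on the minus strand of GRCh37. They lie at chr17:41277382-41277631 for BRCA1, chr17:59940890-59941139 for BRIP1 and chr2:215674408-215674657 for BARD1. Capitals mark matches, on either strand, to letters found in promoters of cell cycle genes or of BRCA1 itself: CCAAT (read by NF-Y, ATTGG on the other strand), the cell cycle homology region letters TTTGAA (on the other strand TTCAAA) or TTCGAA, and ACGTCA (the core of a cAMP response element).
BRCA1: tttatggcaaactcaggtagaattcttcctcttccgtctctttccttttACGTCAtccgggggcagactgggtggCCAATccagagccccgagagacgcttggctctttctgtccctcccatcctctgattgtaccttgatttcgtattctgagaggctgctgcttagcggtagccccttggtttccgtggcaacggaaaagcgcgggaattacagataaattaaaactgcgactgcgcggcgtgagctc
BRIP1: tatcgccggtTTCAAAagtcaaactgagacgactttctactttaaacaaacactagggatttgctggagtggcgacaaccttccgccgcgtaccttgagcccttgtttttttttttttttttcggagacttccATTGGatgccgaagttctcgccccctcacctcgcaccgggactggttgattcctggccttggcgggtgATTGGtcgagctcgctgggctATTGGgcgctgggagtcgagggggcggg
BARD1: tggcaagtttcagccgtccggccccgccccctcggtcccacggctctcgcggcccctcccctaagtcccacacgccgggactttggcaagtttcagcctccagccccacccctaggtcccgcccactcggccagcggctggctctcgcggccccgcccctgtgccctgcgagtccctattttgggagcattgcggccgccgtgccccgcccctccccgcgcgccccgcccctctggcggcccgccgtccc

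BRCA1 held CCAAT 175 bases and ACGTCA 201 bases upstream of its start. BRIP1 held CCAAT in 3 places, 28, 49 and 117 bases upstream, and TTTGAA 240 bases upstream. BARD1 held none of the letters searched. Of the 15539 promoters of tested genes with a transcript in the annotation, 33.6% held CCAAT, 9.47% ACGTCA and 10.4% either cell cycle homology letters. The GC content was 52.4% in BRCA1 and 54% in BRIP1 against 75.2% in BARD1, where the other 7 genes ranged from 50.4% in BABAM1 to 80.4% in BRCC3. BABAM1 and PALB2, which differed little between the groups, also held CCAAT. No promoter of the set held the E2F letters TTTCCCGC or TTTCGCGC or TTTGGCGC or TTTGCCGC, which 4.12% of all promoters held. The ETS letters CCGGAA stood in the ABRAXAS1 and PALB2 promoters and in 23% of all promoters. These matches are a description of letters, not of bound sites, and the absence of a match says nothing about a factor.

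The heterodimer was described first. BRCA1 (ENSG00000012048.21_4, chr17:41196312-41322262, minus strand, 33 exon blocks) had 160 counts in each LNCaP95 library and 824 and 901 counts in LN95(KO). Both knockout libraries lay far above both LNCaP95 libraries, and the LNCaP95 libraries were almost equal. The level was 8.70 ± 0.0473 CPM in LNCaP95 and 48.0 ± 1.99 CPM in LN95(KO) (SD, n = 2 libraries each), which is 2.46 ± 0.09 (SE) as a log2 fold change, or 5.51-fold. BRCA1 shares 1.31% of its exon bases with other listed genes.

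BARD1 (ENSG00000138376.10_3, chr2:215590370-215674407, minus strand, 13 exon blocks) went the other way. It had 2379 and 2378 reads in LNCaP95 against 565 and 720 in the knockout. Both knockout libraries lay below both LNCaP95 libraries, and the knockout replicates differed from each other more than the LNCaP95 replicates did. The level was 129 ± 0.664 CPM in LNCaP95 and 35.7 ± 5.33 CPM in LN95(KO), which is -1.86 ± 0.07 (SE) as a log2 fold change, or 3.62-fold lower. No exon base of BARD1 overlaps another listed gene.

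**Figure D1:**
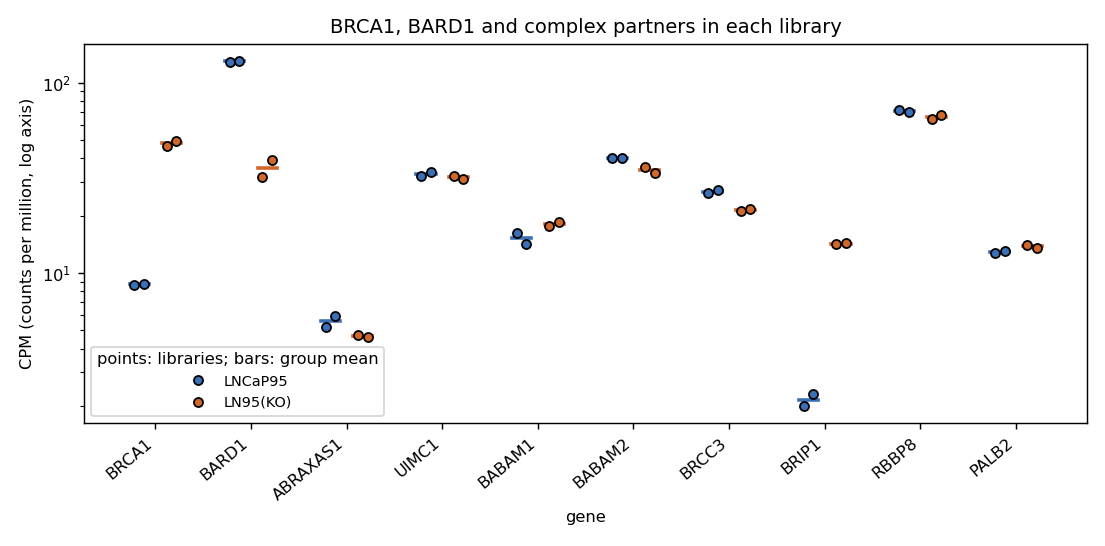
Level of each of the 10 genes in each library, in CPM on a log axis, with 1 point per library and a bar at the group mean. BRCA1 and BRIP1 lie higher and BARD1 lower in LN95(KO), and the points of the other 7 genes lie close together.

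The levels of different genes were compared per length, as CPM per kilobase of the canonical transcript (7088 bases for BRCA1, 5478 bases for BARD1). In LNCaP95, BARD1 stood at 23.5 and 23.7 CPM per kilobase and BRCA1 at 1.22 and 1.23. In LN95(KO), BARD1 stood at 5.83 and 7.20 and BRCA1 at 6.57 and 6.97 CPM per kilobase. The ratio of BARD1 to BRCA1 on this scale was therefore 19.2 in each LNCaP95 library against 0.887 and 1.03 in the knockout. With the length of all annotated exon bases in place of the canonical transcript, a choice made after seeing the data, the ratio was 27.8 in each LNCaP95 library against 1.28 and 1.49 in the knockout. On either length the excess of BARD1 over BRCA1 transcripts in LNCaP95 was not seen at that size in LN95(KO). Which of the pair was higher in LN95(KO) differed between its libraries on the canonical length. On all exon bases BARD1 was higher in both knockout libraries.

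BRIP1 (FANCJ), the helicase of the B complex, had the largest fitted change of the set. BRIP1 (ENSG00000136492.8_2, chr17:59756500-59940920, minus strand) had 37 and 42 reads in LNCaP95 against 250 and 263 in the knockout. Both knockout libraries were above both LNCaP95 libraries. The level was 2.15 ± 0.204 CPM in LNCaP95 and 14.3 ± 0.203 CPM in LN95(KO), which is 2.73 ± 0.15 (SE) as a log2 fold change, or 6.62-fold. The ratio of BRIP1 to BRCA1 per kilobase was 0.200 and 0.227 in LNCaP95 against 0.263 and 0.253 in the knockout, so it changed less than either gene. TOPBP1, a replication and checkpoint protein that binds BRIP1, had a log2 fold change of 0.74. It was higher in both knockout libraries but short of 2-fold, and so was not called.

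Of the 5 subunits of the A complex 0 were called by edgeR or by DESeq2, where 18.0% of all tested genes were called by edgeR, and at an unadjusted p under 0.05 1 was higher and 2 lower. Their log2 fold changes lay between -0.32 and 0.26 with a median of -0.21. ABRAXAS1, the scaffold that binds the BRCT repeats of BRCA1 (chr4:84380670-84444501, minus strand), had 96 and 108 reads in LNCaP95 against 83 and 84 in the knockout. The knockout libraries were lower by a margin close to the gap between the LNCaP95 replicates. Its log2 fold change was -0.26 ± 0.16 (SE), and 25.4% of its exon bases are shared with MRPS18C, whose reads cannot be told apart there.

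UIMC1 (RAP80), which reads ubiquitin chains at breaks (chr5:176332006-176449634, minus strand), had 594 and 618 reads in LNCaP95 against 574 and 568 in the knockout. In CPM the groups overlapped, the only such gene of the 10. Its log2 fold change was -0.05 ± 0.07 (SE), and its sign changed with the scaling by library totals.

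BRCC3, the deubiquitinase of the complex that cuts chains linked through lysine 63 (chrX:154299695-154351352, plus strand), had 484 and 500 reads in LNCaP95 against 376 and 394 in the knockout. Its level was 26.8 ± 0.761 CPM in LNCaP95 and 21.4 ± 0.245 CPM in LN95(KO), which is -0.32 ± 0.08 (SE) as a log2 fold change. BABAM2 (BRE), an adaptor of BRCC3 (chr2:28112808-28561768, plus strand), had 738 and 739 reads in LNCaP95 against 641 and 610 in the knockout, for a log2 fold change of -0.21 ± 0.07 (SE). Both were thus somewhat lower in both knockout libraries, short of 2-fold.

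BABAM1 (MERIT40), which holds the complex together (chr19:17378185-17392058, plus strand), had 299 and 260 reads in LNCaP95 against 314 and 339 in the knockout. It was the only A complex subunit with a positive log2 fold change (0.26, standard error 0.10), and 32.9% of its exon bases are shared with ENSG00000269307. BRCC3, BABAM1 and BABAM2 also work in the cytoplasmic BRISC complex. Of its other parts, the scaffold ABRAXAS2 had a log2 fold change of 0.04 and SHMT2, which binds the complex as a metabolic enzyme, one of -0.59. Neither was called.

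RBBP8 (CtIP), the C complex subunit that starts resection of broken ends (chr18:20378224-20606451, plus strand), had 1322 and 1279 reads in LNCaP95 against 1139 and 1241 in the knockout. Its log2 fold change was -0.10 ± 0.06 (SE). PALB2 (chr16:23614481-23652642, minus strand) had 235 and 239 counts in LNCaP95 and 248 in each LN95(KO) library, which is 0.10 ± 0.10 (SE) as a log2 fold change. Both changes were smaller than 2 standard errors. Since BRCA1 was higher, the ratio of BRCA1 to PALB2 per kilobase was 0.385 and 0.379 in LNCaP95 against 1.88 and 2.05 in the knockout.

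Over the set, 2 genes were called higher (BRCA1 and BRIP1) and 1 lower (BARD1), where 18.0% of all tested genes were called, 8.86% higher and 9.13% lower. At an adjusted p under 0.05 and any size of change, 3 were higher and 3 lower, where 59.8% of all tested genes passed, 29.8% higher and 30.1% lower. Of these 6, BABAM1 and BABAM2 each missed that threshold in 5 of 9 alternatives, DESeq2 included: BABAM1 also with upper quartile factors and without LNCaP95 replicate 2, LN95(KO) replicate 3 or LN95(KO) replicate 4, and BABAM2 also with library totals and without LNCaP95 replicate 1, LNCaP95 replicate 2 or LN95(KO) replicate 4. In 9 of the 10 genes the groups did not overlap, against 79.8% of all tested genes. The median log2 fold change of the set was -0.07, and that of all tested genes was -0.01. These counts come from the contrast that chose the genes and nothing is read from them.

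**Figure D2:**
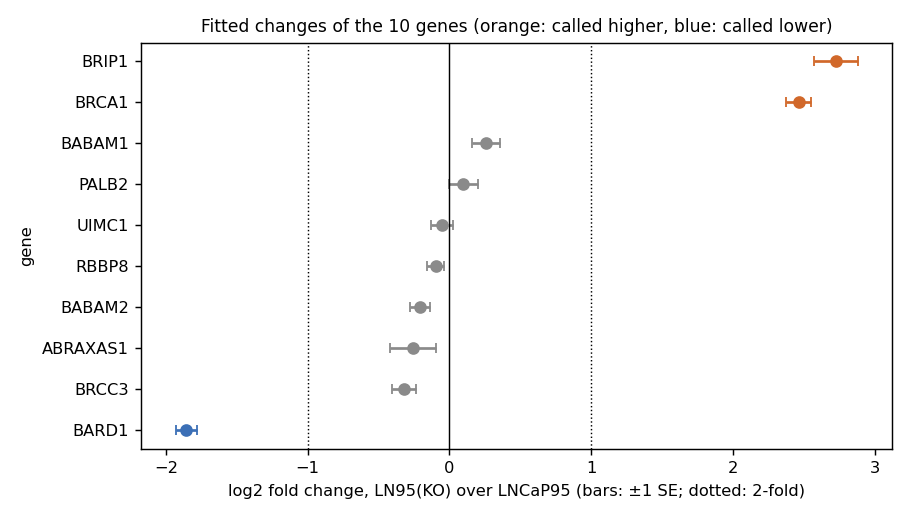
Fitted log2 fold change of each of the 10 genes, LN95(KO) over LNCaP95, with bars of 1 standard error and dotted lines at 2-fold. BRIP1 (2.73) and BRCA1 (2.46) lie to the right of the 2-fold line, BARD1 (-1.86) to the left, and the other 7 genes between -0.32 and 0.26.

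Ordered by CPM per kilobase of the canonical transcript, the set ran in LNCaP95 from BABAM2 (23.9 ± 0.153), BARD1 (23.6 ± 0.121) and RBBP8 (21.6 ± 0.388) through UIMC1 (12.8 ± 0.428), BABAM1 (11.0 ± 1.03) and BRCC3 (9.66 ± 0.275) to PALB2 (3.22 ± 0.0559), ABRAXAS1 (1.32 ± 0.117), BRCA1 (1.23 ± 0.00667) and BRIP1 (0.263 ± 0.0249). BRCA1 thus stood among the lowest of its own complexes in LNCaP95, at rank 9 of 10, and BARD1 at rank 2. In LN95(KO), BRCA1 was at rank 6 (6.77 ± 0.281) and BARD1 at rank 7 (6.51 ± 0.972), and their libraries overlapped, so their order is not resolved. BABAM2 (20.8 ± 1.18) and RBBP8 (20.2 ± 0.788) overlapped in LN95(KO) as well. No other neighbours in either order overlapped, although with 2 libraries the gaps between BABAM2 and BARD1 and between ABRAXAS1 and BRCA1 in LNCaP95 rest on small differences. BRIP1 passed ABRAXAS1, at 1.74 ± 0.0248 against 1.10 ± 0.0145 CPM per kilobase. The order depends on the transcript length assumed: per kilobase of all exon bases, BARD1 (17.0 and 17.1) stood above RBBP8 (14.1 and 13.8) and BABAM2 (11.8 and 11.9) in LNCaP95.

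**Figure D3:**
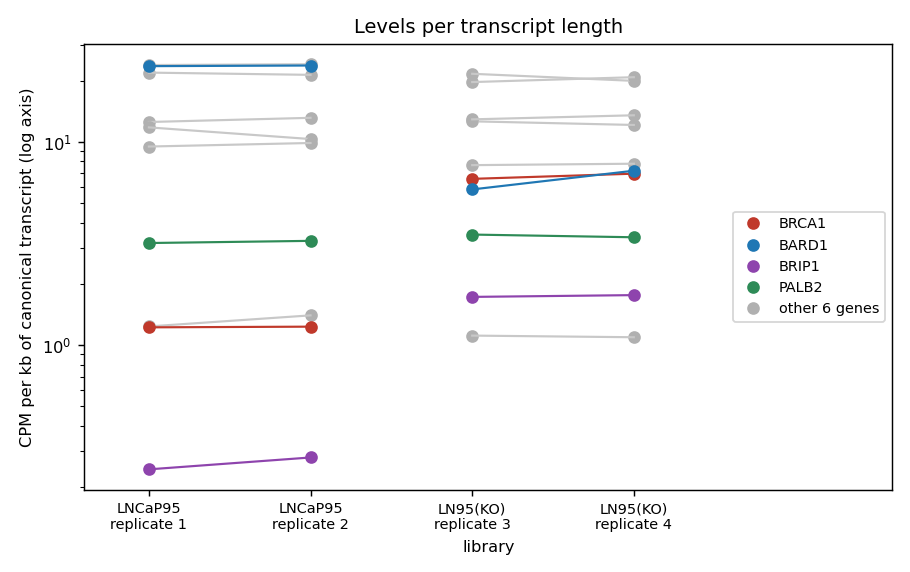
CPM per kilobase of canonical transcript, on a log axis, in each library for the 10 genes, with lines joining the 2 libraries of a group. BARD1 goes from rank 2 to about the level of BRCA1, BRCA1 and BRIP1 lie higher in LN95(KO), and PALB2 stays near 3.2 to 3.5.

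The genes that work with the set were taken from 8 lists of 96 genes, of which 94 had enough reads. Of these, 18 were called higher and 1 lower, where 8.86% of all tested genes were called higher and 9.13% lower. In both directions together this was 20.2%, close to the 18.0% of all tested genes, but the calls were almost all in the higher direction. The median log2 fold change of the 94 was 0.20. At any size of change, 49 were higher and 17 lower with an adjusted p under 0.05, against 29.8% and 30.1% of all tested genes. The 18 higher calls lay in 5 of the 8 lists. In every list the numbers called higher and lower were the same with DESeq2. The lists were written with earlier results of these data known, and the counts of each list below stand beside the same shares.

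The steps around BRCA1 were taken one by one. In end resection, 4 of 13 genes were called higher and 0 lower, with a median log2 fold change of 0.63. The exonuclease EXO1 had 55 and 57 reads in LNCaP95 against 379 and 519 in the knockout, for a log2 fold change of 3.03. The helicase BLM (3.25), its partner RMI2 (2.42) and the nuclease DNA2 (1.31) were the others. MRE11, the nuclease that acts with RBBP8, was higher in both knockout libraries but short of 2-fold (0.86), so it was not called. Its partner NBN was slightly lower in both knockout libraries and not called either (-0.16).

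In BRCA2 function and strand exchange, 6 of 16 tested genes were called higher and 0 lower, with a median of 0.65. BRCA2, which PALB2 ties to BRCA1, had 46 and 44 reads in LNCaP95 against 293 and 331 in the knockout, and its log2 fold change was 2.82 ± 0.15 (SE; adjusted p 2.34e-11, quasi-likelihood test of edgeR, higher in both knockout libraries). RAD54L (3.06), RAD51AP1 (2.57) and XRCC2 (2.15), which act in strand exchange, were called as well, and RAD54L shares 19.9% of its exon bases with LRRC41. BRCA1 and BRCA2 were therefore both higher while PALB2, which connects them, was not called.

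In ubiquitin signalling at breaks, 4 of 14 genes were called higher and 0 lower, with a median of 0.21. The adaptor MDC1 (2.64) rested on 3 and 5 counts against 20 and 30. The histone variant H2AX (1.93), the SUMO ligase PIAS1 (1.13) and the ubiquitin ligase RAD18 (1.06) were the others, and PIAS1 shares 32.7% of its exon bases with other genes. RNF8 and RNF168, which build the chains that UIMC1 reads, had log2 fold changes of 0.21 each and were not called.

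The 53BP1 and shieldin group, which opposes BRCA1 in resection, held 0 called genes among 12 tested by the quasi-likelihood test of edgeR, and 0 by DESeq2. At any size of change 5 were higher and 4 lower with an adjusted p under 0.05, and as many with an unadjusted p under 0.05, with log2 fold changes between -0.69 and 0.55 and a median of 0.07. TP53BP1 itself had 412 and 453 reads in LNCaP95 against 409 and 438 in the knockout, for a log2 fold change of 0.00. RIF1, its effector, had a log2 fold change of 0.34, and SHLD1 of shieldin had the lowest value of the list, -0.69.

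**Figure D4:**
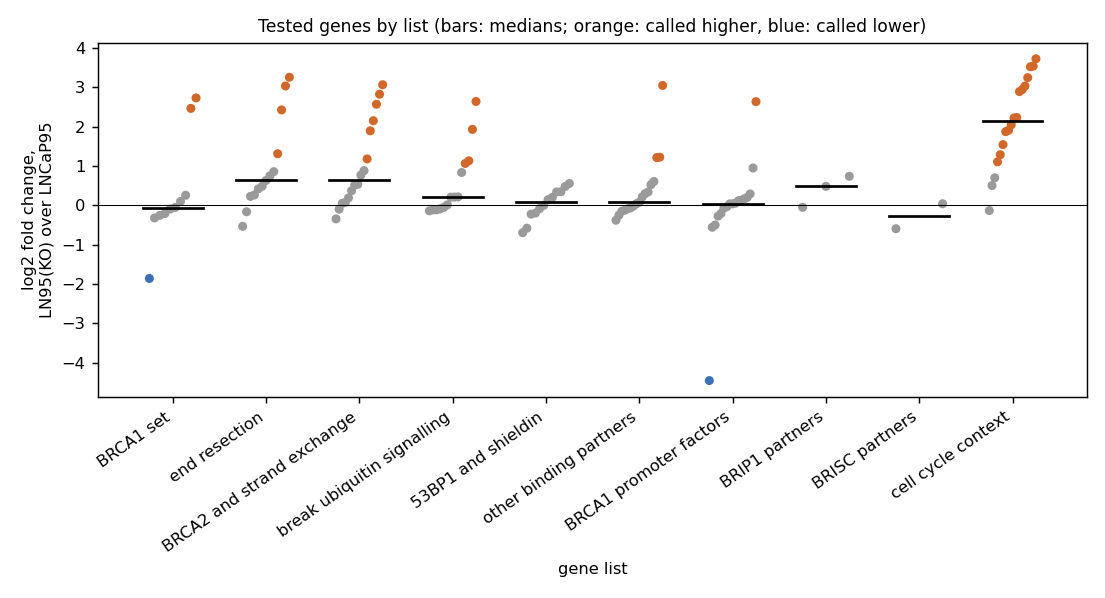
Log2 fold change of each tested gene by list, LN95(KO) over LNCaP95, with a bar at the list median. Called genes are orange (higher) or blue (lower): the 53BP1 and shieldin list has none, and 15 of 18 cell cycle genes are called higher.

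Among 17 other binding partners of BRCA1 and BARD1, 3 were called higher and 0 lower, with a median of 0.08. They were HMMR (3.04), a spindle protein that BRCA1 and BARD1 ubiquitinate, the importin KPNA2 (1.22) and the centrosome protein TUBG1 (1.21). BAP1, named for binding to BRCA1, had a log2 fold change of -0.02.

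Among 17 factors known to act at the BRCA1 promoter, 1 was called higher and 1 lower, with a median of 0.04. E2F1 had 331 and 354 reads in LNCaP95 against 1819 and 2341 in the knockout, and its log2 fold change was 2.63 ± 0.11 (SE; adjusted p 7.46e-10, quasi-likelihood test of edgeR, higher in both knockout libraries). ID4 had 26 and 24 counts in LNCaP95 and 1 count in each LN95(KO) library, a ratio of 24.4 (95% counting interval 6.42 to 207). The NF-Y subunits NFYA and NFYB, which read CCAAT, had log2 fold changes of 0.29 and -0.50, and GABPA, an ETS factor, of -0.27.

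Of 18 cell cycle genes taken as context, 15 were called higher and 0 lower, with a median of 2.13. RRM2 (3.72), CCNA2 (3.54), MKI67 (3.52) and PLK1 (3.24) had the largest values. BARD1 differed in the opposite direction from the 15 called genes, and CCNE1 (-0.13, not called) was the only one of the 18 with a negative value. The part of the cell cycle genes in the change of BRCA1 and BRIP1 was not tested.

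The genomic surroundings of the set were then described, with distances between the 5′ ends of canonical transcripts and positive distances toward higher coordinates. BRCA1 starts 187 bases from NBR2, a non-coding RNA read in the opposite direction. NBR2 had 1038 and 1111 reads in LNCaP95 against 729 and 752 in the knockout, and its log2 fold change was -0.50 ± 0.07 (SE; adjusted p 4.57e-06, quasi-likelihood test of edgeR, lower in both knockout libraries but short of 2-fold). Transcripts from the same short stretch of DNA thus differed in opposite directions, with BRCA1 higher and NBR2 lower. Of the NBR2 exon bases, 7.25% overlap other listed genes.

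BARD1 starts 526 bases from SNHG31, also a non-coding RNA on the opposite strand. SNHG31 had 198 and 254 reads in LNCaP95 against 82 and 97 in the knockout, and its log2 fold change was -1.30 ± 0.15 (SE; adjusted p 1.31e-06, quasi-likelihood test of edgeR, lower in both knockout libraries). Here both genes of the pair were called lower. PALB2 starts 156 bases from DCTN5, a dynactin subunit with 1125 and 1161 reads in LNCaP95 against 1139 and 1150 in the knockout, and neither gene of that pair was called.

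Of 17 tested genes within 2 Mb of BARD1, 5 were called lower (29.4%, against 9.13% of all tested genes), 1 was called higher and 11 were not called, and the median log2 fold change was -0.01. Within the same distance of BRCA1, 4 of 99 were called lower (4.04%) and 12 higher, and within 2 Mb of BRIP1 1 of 30 was lower and 2 higher. RBBP8 had 5 of 18 called higher (27.8%, against 8.86% of all tested genes) and 0 lower, while RBBP8 itself was not called. The counts around the other genes of the set were between 0 and 6 in either direction, out of 19 (ABRAXAS1) to 89 (BABAM1) tested genes each.

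The called genes near BARD1 lay on both sides of it. IKZF2, a transcription factor of the Ikaros family 1.66 Mb toward lower coordinates, had 140 and 153 reads in LNCaP95 against 37 and 56 in the knockout, for a log2 fold change of -1.62. ENSG00000270659 beside it had 22 and 17 against 1 and 3 counts, and 17.9% of its exon bases overlap other genes. SPAG16, a sperm axoneme protein gene 1.53 Mb toward lower coordinates, had 213 and 215 counts in LNCaP95 and 0 in both LN95(KO) libraries, at least 139-fold lower against a floor of 3 counts over the group.

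On the other side, ABCA12, a lipid transporter gene 0.329 Mb away, had 315 and 355 reads in LNCaP95 against 80 and 77 in the knockout, for a log2 fold change of -2.06. Apart from BARD1, which was picked for being lower, 5 of the 6 tested genes from IKZF2 to ABCA12 were called lower. The exception, RPL10P6, is a processed copy of a ribosomal protein gene with 34 to 39 counts per library. Whether reads of RPL10 were placed there was not tested. The end of this stretch at ABCA12 was chosen after its values were seen.

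Beyond ABCA12 no gene within 2 Mb was called lower. ATIC, a purine synthesis enzyme 0.502 Mb from BARD1, had a log2 fold change of -0.21, and FN1 (fibronectin) one of 0.91. IGFBP2, an insulin-like growth factor binding protein, was called higher (1.01), with IGFBP5 beside it at 0.90. The others were MREG (0.16), PECR (-0.49), XRCC5 (0.18), LINC01963 (-0.06), SMARCAL1 (-0.01), RPL37A-DT (0.51) and RPL37A (0.46).

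**Figure D5:**
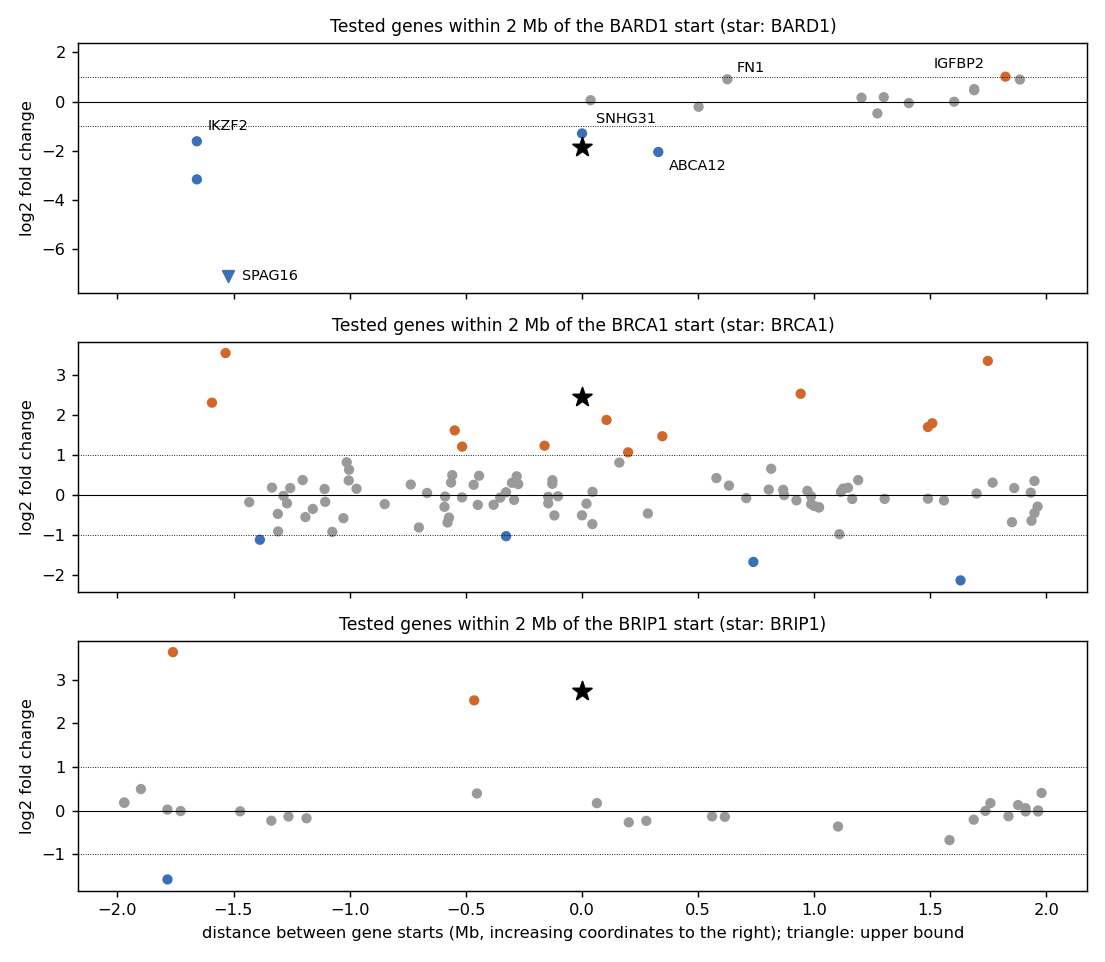
Log2 fold change of tested genes against the distance of their starts from the start of BARD1, BRCA1 or BRIP1 (star), in Mb, with called genes in orange (higher) or blue (lower), dotted lines at 2-fold and SPAG16 drawn at its bound. Genes called lower from IKZF2 to ABCA12, a stretch whose end was chosen after its values were seen, lie on both sides of BARD1. Not called were 11 of 17 genes around BARD1, 83 of 99 around BRCA1 and 27 of 30 around BRIP1. Of all 15626 tested genes, 12815 were not called.

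Around BRCA1, 22 of 27 tested genes within 0.5 Mb were not called, where 12815 of all 15626 tested genes were not called. Nothing is read from this count. CNTD1 was called lower (-1.03), and AARSD1 (1.24), LINC00854 (1.88) and ETV4 (1.47) were among those called higher, on 3 to 56 counts per library. NBR1, an autophagy receptor gene 0.0459 Mb away, had a log2 fold change of 0.08, and ENSG00000267002 next to it one of -0.72. The partial copy BRCA1P1 had 4 counts or fewer in every library.

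The genes whose profile over the 4 libraries was most like that of BRCA1 were METTL7A, TBX2, VWF, SHC4 and ARHGEF39, by the Euclidean distance between centred log2 CPM values (0.0681 for METTL7A, the smallest). Their log2 fold changes were between 2.52 and 2.75. TBX2 also lies within 2 Mb of BRIP1. ARHGEF39 shares 26.3% of its exon bases with other genes, and VWF and SHC4 had only 8 counts in each LNCaP95 library.

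For BARD1 the most alike were FAM66B, KCNQ1, ENSG00000235574, FGF14-AS2 and ZNF454, at distances of 0.0641 to 0.125 and with log2 fold changes between -2.04 and -1.80. FAM66B belongs to a family of near-identical copies, and its counts are uncertain. None of the 5 lies on chromosome 2. With 4 libraries in 2 groups, likeness mostly means a similar difference between the groups.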

How the data were processed

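RNA-Seq of poly(A) RNA was mapped by the authors to hg19 (hisat2, version 2.1.0) and tallied per gene by htseq with the GENCODE release 29 annotation. The deposited values are raw counts without regard to strand, so genes that overlap on opposite strands cannot be separated. A table for the series repeated the files of the single libraries (0 cells differed). The 5 summary lines of each file were excluded.

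Counts of 15626 genes that passed filterByExpr (minimum count 10, minimum total 15) were fitted by the robust quasi-likelihood test of edgeR (version 4.0.16 in R version 4.3.3) with TMM factors and no covariate. Benjamini-Hochberg adjustment covered all 15626. Called genes had an adjusted p under 0.05 and differed more than 2-fold. Levels in CPM use the TMM-scaled sizes, with SD over libraries. The script was tested on simulated data. Permutation of 2 against 2 libraries cannot give a two-sided p below 0.333 and was not used. Intervals and floors cover counting error only.

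Symbols matched 59899 of 60880 identifiers. Coordinates, lengths, overlaps and promoters are those of GENCODE release 44 lifted to GRCh37, later than the release counted on. The 10 genes and all lists were chosen with earlier results of these data known. Named genes are the 10 genes, UGT2B17, up to 4 called genes per list with the largest change, tested genes within 2 Mb of BARD1 or 0.5 Mb of BRCA1, and the 5 genes most like each. Some genes under this rule are not reported here. Other names were chosen after their values were seen. Alternatives were RLE, library totals, upper quartile factors, no filter, DESeq2 (version 1.42.0), no fold criterion, 1 Mb windows and omission of each library. Protein sequences were not used here.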

Additional observations from a re-analysis of the deposited data

Results flagged for a closer look

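The share of entries that did not align lies outside the counts compared and differed between the groups. It was 7.71% in the lower of the LN95(KO) libraries, above 3.85% and 3.96% in the LNCaP95 libraries. What these reads are, and their part in the values of BRCA1, BARD1 and the other genes, was not tested.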

How the results depend on the processing

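BRCA1, BARD1, BRIP1 and UGT2B17 kept their direction and their call under RLE factors, library totals, upper quartile factors, no filter, DESeq2 and omission of any single library. With one library omitted, BRCA1 ranged from 2.42 to 2.51, BARD1 from -2.01 to -1.71, BRIP1 from 2.63 to 2.83 and UGT2B17 from -7.09 to -6.98 on the log2 scale, and between 2539 and 2777 genes were called. UIMC1 had a log2 fold change of 0.0027 with library totals, and the other 9 genes of the set kept their sign in all of these fits. Without the fold criterion 9349 of all tested genes and 6 of the 10 passed. Over the 9 alternative fits the adjusted p ranged from 0.0134 to 0.326 for BABAM1 and from 0.00778 to 0.131 for BABAM2 (edgeR, and DESeq2 in 1 fit), so that these passed in 4 of 9 fits each. Within 1 Mb of a gene of the set 36 genes were called, against 70 within 2 Mb. The 1 Mb windows held from 5 (BARD1) to 55 (BRCA1) tested genes each, and the 2 Mb windows from 17 to 99. Of all tested genes 18.0% were called, and nothing is read from the counts in these windows. In a check added after seeing the data, 5 genes within 2 Mb of BARD1 were called lower in every one of these fits. DESeq2 called 2358 genes.

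No paired analysis was possible because LNCaP95 is numbered 1 and 2 and LN95(KO) 3 and 4. With 2 libraries a group, an SD rests on a single difference, and a fit without a library assumes that the lone library varies like the other group. ID4, MDC1 and VWF rest on 8 counts or fewer in at least one library, and small changes of ABRAXAS1, PALB2 and UIMC1 are not resolved at this depth.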

Other observations

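RAD50, which works with MRE11 and NBN, had 44 and 53 reads in LNCaP95 against 55 and 56 in the knockout, and 76.9% of its exon bases overlap other listed genes, where reads are left uncounted as ambiguous. TEN1 had at most 5 counts in a library and shares 75.9% of its exon bases.

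The next 3 tested genes beyond 2 Mb on either side of BARD1 were looked up after the values near it were seen. CPS1, a urea cycle enzyme 4.25 Mb toward lower coordinates, had 182 and 198 reads in LNCaP95 against 66 and 61 in the knockout, for a log2 fold change of -1.55. LANCL1 beside it had a log2 fold change of -0.46 and KANSL1L one of 0.22. TNS1, 3.19 Mb toward higher coordinates, had one of -0.62, ARPC2 one of 0.11 and AAMP one of 0.27.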
